A study of Mus musculus with 14 samples.

Results

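Transcripts of the AMPA receptor subunits and of their TARP auxiliary subunits (transmembrane AMPA receptor regulatory proteins) were followed in the superior colliculus of mouse pups. The 10 genes were Gria1, Gria2, Gria3 and Gria4 for the pore and Cacng2, Cacng3, Cacng4, Cacng5, Cacng7 and Cacng8 for the TARPs. They were found by matching Ensembl gene IDs to mouse symbols, and all 10 were present among the 55359 gene IDs of each count table. The tissue was bulk poly-A RNA from ICR/CD-1 pups at postnatal day 6, dissected into superficial and deep layers. At postnatal day 0 to 1 the pups had been given 0.3 to 0.5 µL of 50 mM carbenoxolone (cbx), a blocker of gap junctions, or of saline by injection into the eye. According to the labels the drug served to remove retinal waves, the spontaneous activity that crosses the retina before vision. The groups were 4 cbx and 3 saline libraries of the superficial layer and 4 cbx and 3 saline libraries of the deep layer. Each library was a pool of 3 brains, so all p-values measure the spread between pools and not between single pups.

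AMPA receptors are tetramers of GluA subunits that carry most fast excitatory transmission, including that of retinal axons onto collicular neurons. A receptor with the edited form of GluA2, the product of Gria2, passes almost no calcium, whereas receptors without it do. TARPs bind the assembled receptor. Stargazin, the product of Cacng2, is the founding member. It carries the receptor to the surface and the synapse and slows its closing. Type I TARPs (Cacng2, Cacng3, Cacng4, Cacng8) end in a motif that binds PDZ domains of postsynaptic scaffolds such as PSD-95, and type II TARPs (Cacng5, Cacng7) lack it.

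The coding sequence around the Q/R site, the position that sets calcium passage, is given here for the 4 pore genes. The codon at this site is in capitals and lies in exon 11 of the coding transcript used for each gene in GENCODE M21 (GRCm38). The stretches are chr11:57243073-57243117 (plus strand) for Gria1, chr3:80706890-80706934 (minus strand) for Gria2, chrX:41610244-41610288 (plus strand) for Gria3 and chr9:4464116-4464160 (minus strand) for Gria4.
Gria1: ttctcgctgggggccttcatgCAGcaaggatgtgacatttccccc
Gria2: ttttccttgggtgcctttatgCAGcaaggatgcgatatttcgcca
Gria3: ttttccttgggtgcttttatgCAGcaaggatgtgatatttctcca
Gria4: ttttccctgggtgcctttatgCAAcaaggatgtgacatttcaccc
All 4 genomic codons stand for glutamine. Of the 45 bases, Gria3 shares 42 with Gria2, Gria4 shares 39 and Gria1 shares 36. The arginine of GluA2 is made by RNA editing, mainly by the enzyme encoded by Adarb1, and counts per gene do not show whether a read was edited.

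The last 30 coding bases of the 6 TARPs show the ends by which both types differ. The last 4 codons before the stop codon are in capitals. In GRCm38 they lie at chr15:77995149-77995178 (minus strand) for Cacng2, chr7:122768817-122768846 (plus) for Cacng3, chr11:107734780-107734809 (minus) for Cacng4, chr11:107877352-107877381 (minus) for Cacng5, chr7:3366919-3366948 (plus) for Cacng7 and chr7:3415576-3415605 (plus) for Cacng8.
Cacng2: acagccaaccgccggACCACGCCCGTAtga
Cacng3: ccggccaacagacgtACCACGCCTGTCtga
Cacng4: atgctgaaccggcggACGACTCCCGTGtga
Cacng8: acgctcaacaggaaaACCACGCCCGTGtag
Cacng5: tatgaccagatgtcaTCATCTCCCTGCtga
Cacng7: catctccacatctccACTTCGCCGTGCtga
The capitals of Cacng2, Cacng3, Cacng4 and Cacng8 encode the same 4 amino acids, and those of Cacng5 and Cacng7 encode others.

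The libraries held 32004952 to 48776827 counts, and each of the 10 genes had between 739 and 17260 counts in every library. All 10 markers of the dorsal midbrain were detected, with sums of 627 to 680.0 CPM (counts scaled to library size) in superficial libraries and 1005 to 1091 CPM in deep ones, and 7 markers of cortex and hippocampus summed to 10.3 to 23.2 CPM in a library. Of 7 cerebellar markers Gabra6 and Atoh1 were at 0 counts in every library. The 7 summed to 143 to 167 and 139 to 166 CPM in cbx and saline superficial libraries, against 57.4 to 65.3 and 62.0 to 72.6 CPM in cbx and saline deep libraries, most of it from Barhl1. The 5 thalamic markers summed to 430.3 to 661 CPM over all libraries, with Slc17a6, Rora and Lef1 making up most of it. The mix of sexes varied among pools. The Y-linked gene Ddx3y was at 0 counts in cbx pool 4, in either layer. Saline pool 1 held nearly no Xist, the transcript that marks female cells, with 1.94 CPM in its superficial and 0.572 CPM in its deep library, where the other libraries had 187 to 1127 CPM. These are called the pools of one sex below.

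Every one of the 10 genes was expressed in both layers and after both injections. The plot of levels by library shows them in CPM scaled with TMM factors, a unit that compares 1 gene between libraries. Across the 14 libraries the highest value of a gene exceeded its lowest by a factor of 1.26 for Gria4 to 1.84 for Gria2.

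**Figure D1:**
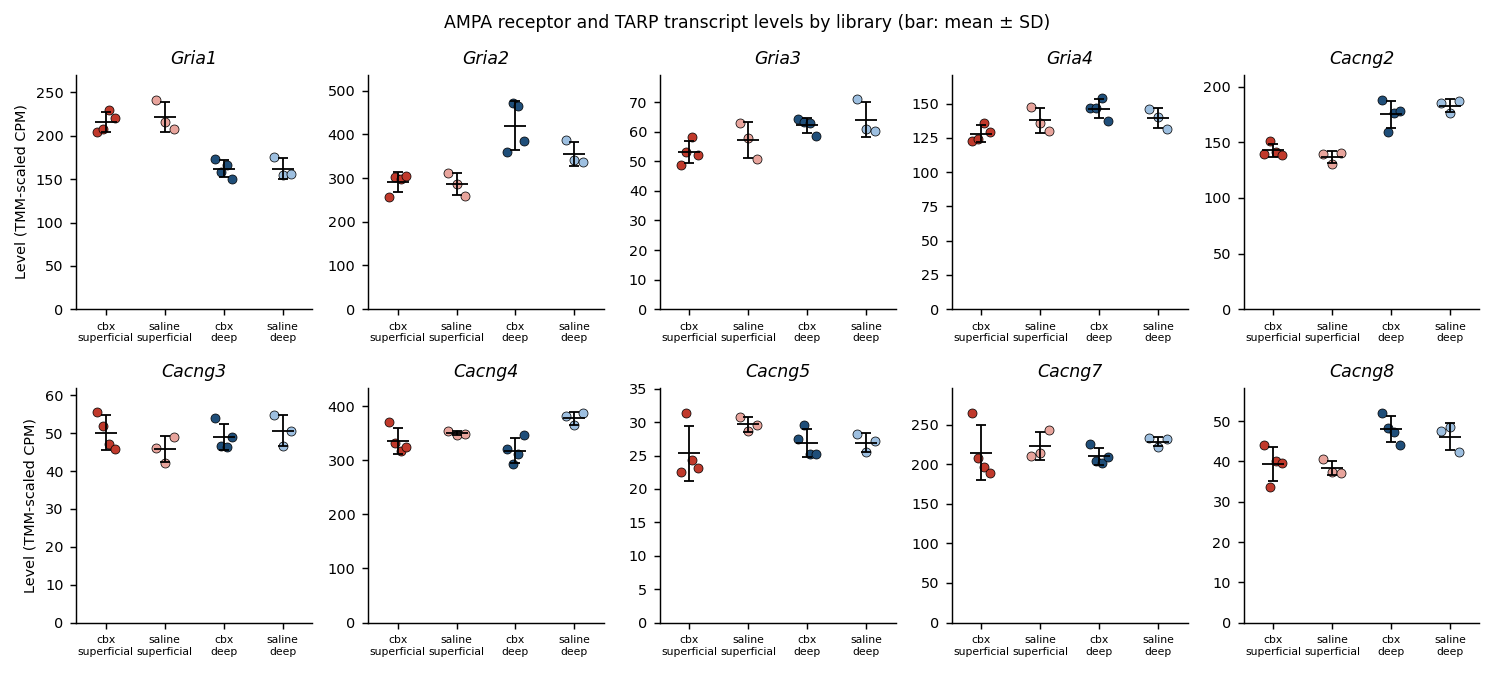
Level of each gene in TMM-scaled CPM (vertical axes, from 0) in each library of the 4 groups, with the mean ± SD as bars. Gria1 sits between 205 and 242 CPM in superficial libraries, above all deep ones, and Gria2 and Cacng2 sit lower in superficial than in deep libraries.

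Levels of different genes can be compared only per length, here as CPM per kilobase of all annotated exons. On that scale the TARPs Cacng4 and Cacng7 stood first and second in all 4 groups. Cacng4 (ENSMUSG00000020723, chr11:107732357-107794557), a type I TARP prominent in the developing brain, averaged 94.0 ± 6.68 and 97.9 ± 1.04 CPM per kb in cbx and saline superficial libraries and 89.0 ± 6.34 and 105.7 ± 3.34 in cbx and saline deep ones (SD, n = 4 and 3). Cacng7 (ENSMUSG00000069806, chr7:3332955-3368221) averaged 88.0 ± 14.2 and 91.4 ± 7.28 CPM per kb in cbx and saline superficial libraries and 86.1 ± 4.28 and 93.7 ± 2.33 in cbx and saline deep ones. The libraries of these neighbours in the order overlapped in 3 groups and were separate in the saline deep group. Divided by the longest transcript instead, Cacng7 stood before Cacng4 in 3 groups, with overlapping libraries, and the pair still led.

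Next in the superficial layer came Gria1, at 35.7 ± 1.91 CPM per kb after cbx and 36.7 ± 2.93 after saline, while Cacng2 came next in the deep layer, at 31.8 ± 2.19 after cbx and 33.2 ± 1.07 after saline. At the low end stood Cacng5 (ENSMUSG00000040373, chr11:107874605-107915055), at 6.61 to 7.75 CPM per kb over the 4 group means, and Gria3, at 5.38 to 6.50. Both were below every other gene of the 10 in all groups with either length. Cacng3 (ENSMUSG00000066189, chr7:122670492-122769393) and Cacng8 overlapped each other in all 4 groups with all exons as length, at means between 16.4 and 20.5 CPM per kb. With the longest transcript Cacng8 stood above Cacng3 and was separate from it in all groups but cbx superficial. The place of Gria2 depended on the length: its exons together span 15548 bp and its longest transcript 10371 bp.

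The superficial layer differed from the deep layer in the make-up of the Gria transcripts. Receptor protein was not measured. Gria1 was higher and Gria2 lower in superficial libraries, after cbx and after saline alike. In the superficial layer Gria1 made up 44.6% ± 0.748 of the summed Gria level per kb after cbx and 44.4% ± 0.473 after saline (SD, n = 4 and 3). Its share in the deep layer was 32.2% ± 2.05 after cbx and 34.3% ± 0.561 after saline. Gria2 took 23.3% ± 1.16 and 22.2% ± 0.420 in cbx and saline superficial libraries, and 32.4% ± 2.98 and 29.2% ± 0.284 in cbx and saline deep ones. The shares of Gria4 lay between 25.4% and 28.2% in the group means and those of Gria3 between 6.72% and 8.29%. In saline deep libraries the order turned with the longest transcript as length, to 33.8% for Gria2 and 28.8% for Gria1. The summed Gria level moved less, at 80.03 ± 4.22 and 82.7 ± 6.53 CPM per kb in cbx and saline superficial libraries and 83.3 ± 4.92 and 78.3 ± 5.29 in cbx and saline deep ones.

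**Figure D2:**
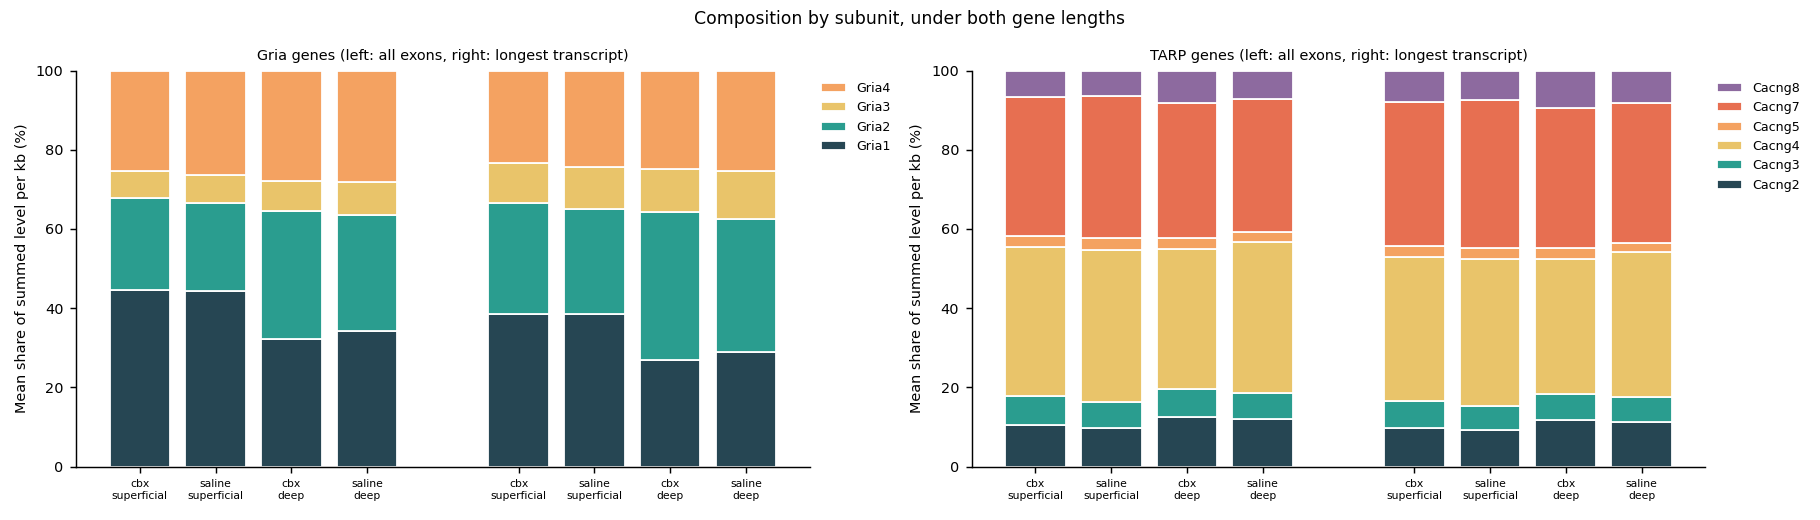
Mean share of each gene (vertical axis, percent) in the summed level per kb of the 4 Gria genes and of the 6 TARP genes, by group, with all exons (left bars) or the longest transcript (right bars) as length. The Gria1 block is larger in superficial than in deep groups and the Gria2 block smaller, while the TARP blocks differ little, with Cacng4 and Cacng7 filling most of the bar.

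Gria1 (ENSMUSG00000020524, chr11:57011387-57330244) encodes GluA1, a subunit whose long tail takes part in activity-dependent insertion. Its level was 205, 208, 229 and 221 CPM in cbx superficial libraries, against 173, 158, 166 and 150.3 CPM in cbx deep libraries. The saline superficial libraries held 242, 216 and 207 CPM, against 176, 155 and 156 CPM in saline deep libraries. No superficial library reached down to a deep one. The fitted log2 difference between superficial and deep was 0.41 after cbx (SE 0.0673, edgeR adjusted p = 7.87e-05) and 0.45 after saline (SE 0.0777, edgeR adjusted p = 0.000268). Gria1 was higher in the superficial library of all 7 pools. In bulk tissue fewer cells of a type and less RNA per cell cannot be told apart, for this result and those that follow.

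Gria2 (ENSMUSG00000033981, chr3:80681450-80802835) ran the other way. It stood at 257, 302, 297 and 305 CPM in cbx superficial libraries, against 359, 471, 465 and 384 CPM in cbx deep libraries. After saline the values were 311, 287 and 259.7 CPM in superficial libraries, against 387, 342 and 337 CPM in deep ones. Both pairs of groups were separate, and cbx superficial pool 1 stood below the other 3 of its group. The log2 difference was -0.53 after cbx (SE 0.0890, edgeR adjusted p = 9.88e-05) and -0.31 after saline (SE 0.103, edgeR adjusted p = 0.0381). It was lower in the superficial library of 7 of 7 pools. The saline call was lost when any of 4 single libraries was left out: saline deep 1 (-0.25, adjusted p = 0.170), saline deep 2 (-0.34, 0.0643), saline superficial 2 (-0.32, 0.101) or saline superficial 3 (-0.25, 0.153). It was also lost without the pools of one sex (-0.31, 0.141). The cbx difference ran from -0.603 to -0.376 over 18 alternatives and passed in each.

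Cacng2 (ENSMUSG00000019146, chr15:77991748-78120028), the gene of stargazin, was the TARP with the clearest difference between layers. Its level was 139, 151, 142 and 139 CPM in cbx superficial libraries, against 188, 159, 176 and 178 CPM in cbx deep libraries. The saline libraries held 139.7, 131 and 140.2 CPM in the superficial layer, against 185, 176 and 187 CPM in the deep layer. The groups did not overlap. The log2 difference was -0.30 after cbx (SE 0.0593, edgeR adjusted p = 0.000635) and -0.42 after saline (SE 0.0685, edgeR adjusted p = 0.000165), with 7 of 7 pools lower in the superficial layer. In GENCODE M21 an antisense gene covers 5.86% of its exon bases, and the strand setting of the counts is not given in the sources used here.

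Cacng8 (ENSMUSG00000053395, chr7:3390683-3415648), a type I TARP known from the hippocampus, was also lower in the superficial layer. It had 44.0, 33.7, 40.0 and 39.5 CPM in cbx superficial libraries, against 52.1, 48.4, 47.3 and 44.1 CPM in cbx deep libraries. After saline it had 40.5, 37.5 and 37.2 CPM in superficial libraries, against 47.6, 48.5 and 42.4 CPM in deep libraries. Groups were separate by a narrow margin. The log2 difference was -0.29 after cbx (SE 0.0790, edgeR adjusted p = 0.00826) and -0.27 after saline (SE 0.0915, edgeR adjusted p = 0.0491). The saline value lay just past the threshold of 0.05. Its adjusted p rose to 0.146 without saline deep 1, 0.186 without saline deep 2, 0.0585 without saline superficial 1, 0.159 without saline superficial 2 and 0.134 without saline superficial 3. It was 0.175 without the pools of one sex, 0.0587 in limma-voom, 0.0583 with Ddx3y as a covariate and 0.163 with the length and GC trend removed. Cacng8 was nonetheless lower in the superficial library of 7 of 7 pools.

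Gria3 and Gria4 passed only among the cbx libraries, and the layer difference was not shown to depend on the injection (interaction, edgeR adjusted p = 0.904 and 0.636). Gria3 (ENSMUSG00000001986, chrX:41400854-41678601), on the X chromosome, had 48.9, 53.3, 58.1 and 52.1 CPM in cbx superficial libraries, against 64.2, 63.3, 62.8 and 58.5 CPM in cbx deep libraries. The log2 difference was -0.23 (SE 0.0754, edgeR adjusted p = 0.0249), and after saline it was -0.16 (SE 0.0870, edgeR adjusted p = 0.226). It was lower in the superficial library of 7 of 7 pools. Gria4 (ENSMUSG00000025892, chr9:4417896-4796234), a subunit abundant early in development, had 122, 124, 136 and 129.6 CPM in cbx superficial libraries, against 147, 147, 154 and 137 CPM in cbx deep libraries. Its log2 difference was -0.19 (SE 0.0607, edgeR adjusted p = 0.0217), and after saline it was -0.02 (SE 0.0701, edgeR adjusted p = 0.919). The Gria3 call was lost without cbx deep 1, cbx deep 3, cbx superficial 1, cbx superficial 2 or cbx superficial 4, at adjusted p of 0.0571, 0.0519, 0.0612, 0.0507 and 0.0512 in that order. The Gria4 call was lost without cbx deep 3 (0.0713), without cbx superficial 2 (0.0648) or with no filter on low counts (0.0537). With the length and GC trend removed Gria3 also passed after saline (-0.21, edgeR adjusted p = 0.0403).

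Counted over the 10 genes, 6 passed between the layers after cbx, 1 higher and 5 lower in the superficial layer. Among all 20330 tested genes 32.2% passed in that comparison, 18.1% higher and 14.1% lower. With each library's trend in length and GC content removed, the split over all genes was 3191 higher and 3824 lower, against 3671 higher and 2873 lower without that step. After saline 4 of the 10 genes passed, 1 higher and 3 lower, against 18.4% of all genes, 9.67% higher and 8.73% lower. The median log2 difference of the 10 genes was -0.14 after cbx and -0.13 after saline, beside 0.02 and 0.04 over all genes. The remaining 4 genes, Cacng3, Cacng4, Cacng5 and Cacng7, passed in neither comparison. Their 95% intervals ran from -0.28 to 0.21 after cbx and from -0.33 to 0.37 after saline. Over the 7 pools they were split, with 3 or 4 higher in the superficial library. In all 3 saline pools Cacng5 was higher and Cacng3 and Cacng4 were lower in the superficial library, and the saline groups of Cacng4 and Cacng5 did not overlap between layers. The share of all genes with separate groups is not given here. The cbx pools held both signs for each of the 4 genes.

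**Figure D3:**
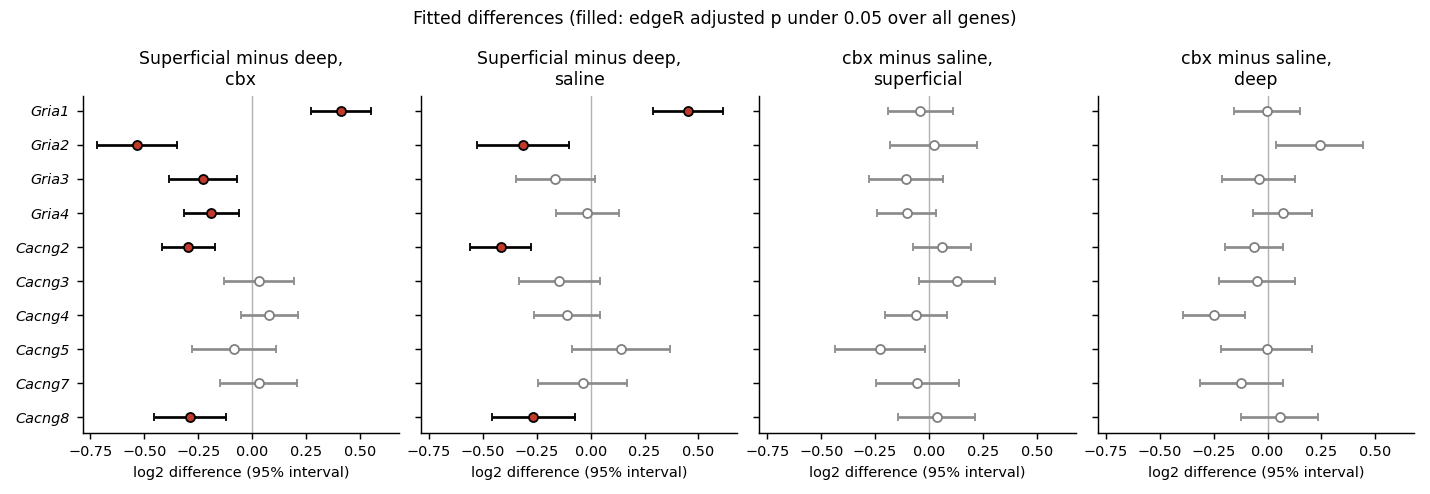
Fitted log2 difference with its 95% interval (horizontal axes) for each gene in 4 comparisons. Filled points passed the test over all genes: 6 between layers after cbx, 4 between layers after saline and none for cbx against saline in either layer.

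Ratios within a library do not depend on its depth. The ratio of Gria1 to Gria2, both per kb, was 2.05, 1.77, 1.99 and 1.86 in cbx superficial libraries, against 1.24, 0.864, 0.920 and 1.01 in cbx deep libraries. It was 2.00, 1.94 and 2.06 in saline superficial libraries, against 1.17, 1.16 and 1.19 in saline deep libraries. Every superficial library thus lay above every deep one. The size of the ratio depends on the length used. With the longest transcript its means were 1.39 and 1.45 in cbx and saline superficial libraries, against 0.732 and 0.854 in cbx and saline deep libraries. The layer difference in the log2 ratio, averaged over both injections, was 0.85 (exact two-sided permutation of layer labels within each injection, p = 0.00143, the smallest the 1400 permutations allow, adjusted p = 0.0025 over 7 ratios).

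The other ratios to Gria2 followed the same order. The sum of Gria1, Gria3 and Gria4 over Gria2 averaged 3.30 ± 0.214 and 3.503 ± 0.0856 in cbx and saline superficial libraries, against 2.11 ± 0.302 and 2.43 ± 0.0332 in cbx and saline deep libraries (SD, n = 4 and 3). Its log2 layer difference was 0.59 (exact permutation adjusted p = 0.0025). Gria4 over Gria2 differed by 0.32 (exact permutation adjusted p = 0.0025) and Gria3 over Gria2 by 0.22 (exact permutation adjusted p = 0.006). In all 7 pools each of these ratios was higher in the superficial library, and sign flips over the pools gave p = 0.0156 for each, the smallest that exact test allows. They share Gria2, so they are not independent of each other.

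Among the TARPs, Cacng4 over Cacng2 averaged 3.64 ± 0.326 and 3.95 ± 0.132 in cbx and saline superficial libraries, against 2.80 ± 0.160 and 3.18 ± 0.0121 in cbx and saline deep libraries. The log2 layer difference was 0.34 (exact permutation adjusted p = 0.0025), with 7 of 7 pools higher in the superficial layer. The ratio of type II to type I TARPs did not pass, at 0.10 (exact permutation p = 0.0529, adjusted p = 0.0617), with 6 of 7 pools higher. It passed without cbx superficial 4 (0.12, adjusted p = 0.0267), without cbx deep 2 (0.12, adjusted p = 0.0333) or without cbx pool 4 (0.11, adjusted p = 0.0467). The sum of the 6 TARPs over the sum of the 4 Gria genes differed by -0.08 between layers (exact permutation p = 0.347), with 3 of 7 pools higher in the superficial layer. This average joins 0.04 after cbx and -0.20 after saline, where all 3 pools were lower in the superficial layer.

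**Figure D4:**
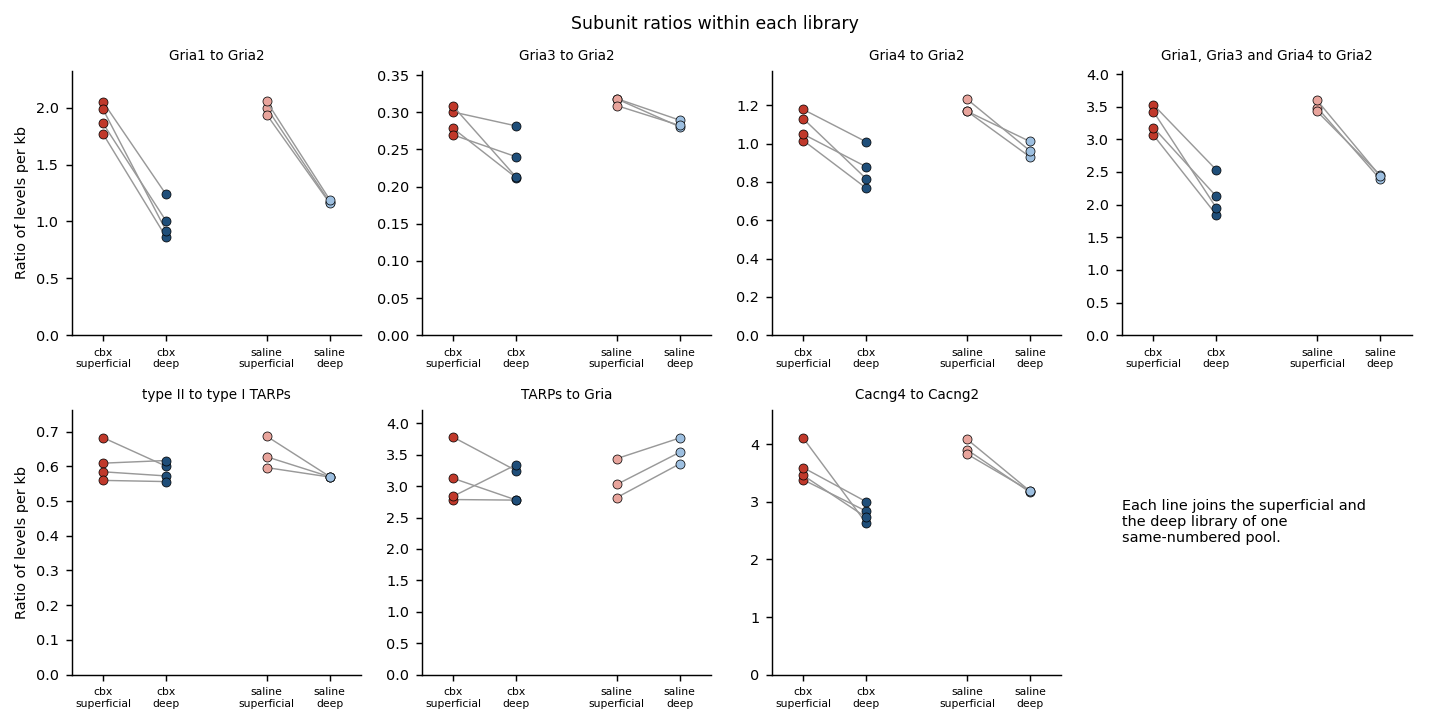
The 7 ratios of levels per kb (vertical axes, from 0) in each library, with lines that join the superficial and deep library of a pool. Gria1 to Gria2 falls between 1.77 and 2.06 in superficial libraries and between 0.864 and 1.24 in deep ones, and the ratio of TARPs to Gria slopes one way in the 3 saline pools and both ways in the cbx pools.

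The layers also differed in marker genes of cell types, whose part in these results was not tested. Over all tested genes 18.1% were higher and 14.1% lower in the superficial layer after cbx, and 9.67% higher and 8.73% lower after saline. The summed level of 5 GABAergic markers ran from 909 to 1024 and from 1011 to 1056 CPM in cbx and saline superficial libraries, against 614 to 719.8 and 652 to 710.3 CPM in cbx and saline deep libraries. Of them 3 were higher in the superficial layer after either injection, and Gad2 was lower after cbx. Slc17a6 and Slc17a7, markers of glutamatergic neurons, summed to 193 to 212 and 189 to 230.4 CPM in cbx and saline superficial libraries, against 397 to 449 and 379 to 411 CPM in cbx and saline deep libraries, with Slc17a6 lower in the superficial layer. All 8 markers of oligodendrocyte precursors were lower in the superficial layer after either injection, with sums of 764 to 939.8 and 751 to 856 CPM in cbx and saline superficial libraries, against 1249 to 1378 and 1267 to 1527 CPM in cbx and saline deep libraries. Of 8 oligodendrocyte and myelin markers 1 was higher and 3 lower after cbx, and 2 higher and 1 lower after saline. Of the 10 astrocyte and radial glia markers 6 were higher and 1 lower after cbx, and 4 higher and 1 lower after saline. They summed to 4333 to 4909 and 4281 to 4974 CPM in cbx and saline superficial libraries, against 3071 to 3487 and 3468 to 4051 CPM in cbx and saline deep libraries. Of 12 microglial and macrophage markers 4 were higher and 3 lower after cbx, and 3 higher and 8 lower after saline. These summed to 350.4 to 415.7 and 254.8 to 305.5 CPM in cbx and saline superficial libraries. In cbx and saline deep libraries they summed to 339.8 to 375.6 and 373.4 to 403.5 CPM. Of the 10 pan-neuronal markers 5 were lower and 1 higher after cbx, and 3 lower and 1 higher after saline. Their sums were 3653 to 4269 and 3748 to 4226 CPM in cbx and saline superficial libraries, and 4096 to 4839 and 4251 to 4512 CPM in cbx and saline deep libraries. All 10 markers of meningeal fibroblasts were higher in the superficial layer after either injection, with sums of 693 to 1379 and 536 to 794 CPM in cbx and saline superficial libraries, against 41.9 to 55.9 and 62.9 to 72.9 CPM in cbx and saline deep libraries. Of 7 endothelial markers 5 were higher after either injection, with sums of 329.6 to 408 and 381 to 394 CPM in cbx and saline superficial libraries, against 178 to 243 and 214 to 234 CPM in cbx and saline deep libraries. Of 5 red blood cell markers 4 were higher after cbx and 0 after saline. Of the 5 tested cerebellar markers 2 were higher after cbx and 3 after saline. Of the 6 tested cortical and hippocampal markers 1 was higher and 2 lower after cbx, and 2 higher and 1 lower after saline. Of the 4 tested thalamic markers 1 was lower after either injection. Of the 10 dorsal midbrain markers 3 were higher and 6 lower after either injection.

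The second question was whether cbx at the eye changed these genes. None of the 10 passed in the superficial layer, where 4.33% of all genes did (2.68% higher and 1.65% lower), and none passed in the deep layer, where 1.83% did (1.06% higher and 0.777% lower, edgeR). At an unadjusted p under 0.05 there was 1 gene of the 10 in the superficial layer, Cacng5, and 2 in the deep layer, Cacng4 and Gria2. Of all 20330 tested genes, 4179 in the superficial and 3118 in the deep layer had an unadjusted p under 0.05 (edgeR). DESeq2 called 0 and 1 of the 10, and limma-voom called 0 in both layers. The fitted log2 differences ran from -0.23 to 0.13 in the superficial and from -0.25 to 0.24 in the deep layer. Their 95% intervals stayed between -0.44 and 0.31 in the superficial and between -0.39 and 0.44 in the deep layer. The intervals of Cacng5 in the superficial layer (-0.44 to -0.02) and of Cacng4 (-0.39 to -0.10) and Gria2 (0.04 to 0.44) in the deep layer lay off 0 before adjustment over all genes. A missed threshold does not show that the levels were equal.

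Cacng4 in the deep layer was the only gene of the 10 whose cbx and saline libraries did not overlap. How many of all genes were separate in this way is not given here. It had 321, 293, 312 and 347 CPM in cbx deep libraries, against 381, 364 and 387 CPM in saline deep libraries. The log2 difference was -0.25 (SE 0.0685), and it missed the threshold (edgeR adjusted p = 0.0683). It passed in DESeq2 (adjusted p = 0.0102), in a fit of the deep libraries alone (0.0433) and with the length and GC trend removed (0.0271). In the other 14 of 17 alternatives it did not pass. In the superficial layer it had 371, 332, 318 and 324 CPM after cbx, against 354, 347 and 349 CPM after saline, and the log2 difference was -0.06 (SE 0.0687, edgeR adjusted p = 0.675). The difference between the layers in the response to cbx was 0.19 (SE 0.0972, interaction, edgeR adjusted p = 0.627).

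Gria2 in the deep layer was 0.24 higher after cbx on the log2 scale (SE 0.0963, edgeR adjusted p = 0.222). The 4 cbx deep libraries were spread, with 2 at 465 and 471 CPM above every saline deep library and 2 at 359 and 384 CPM within the saline range of 337 to 387 CPM. With the length and GC trend removed the difference was 0.18 and passed (edgeR adjusted p = 0.0486). In the other 16 of 17 alternatives it did not pass. In the superficial layer the difference was 0.02 in the main fit (SE 0.0960, edgeR adjusted p = 0.928) and reached 0.128 over the alternative settings. The interaction was -0.22 in the main fit and -0.0552 with the length and GC trend removed (edgeR adjusted p = 0.692 and 0.871).

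Cacng5, a type II TARP, had 22.6, 31.4, 24.3 and 23.1 CPM in cbx superficial libraries, against 30.8, 28.6 and 29.6 CPM in saline superficial libraries. Pool 2 of the cbx group lay above all 3 saline libraries and the other 3 cbx libraries below them. The log2 difference was -0.23 (SE 0.101, edgeR adjusted p = 0.204), and without cbx superficial 2 it was -0.35 (edgeR adjusted p = 0.0306). In the other 16 of 17 alternatives it did not pass. In the deep layer the difference was -0.00428 (SE 0.101, edgeR adjusted p = 0.992).

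The other genes overlapped between cbx and saline. Gria1 differed by -0.04 in the superficial and by -0.00152 in the deep layer (log2), Gria3 by -0.11 and -0.04, and Gria4 by -0.10 and 0.07. Cacng2 differed by 0.06 and -0.06, Cacng3 by 0.13 and -0.05, Cacng7 by -0.05 and -0.12, and Cacng8 by 0.03 and 0.06. The edgeR adjusted p of these values lay between 0.394 and 0.995.

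The 7 ratios between cbx and saline could not reach p = 0.05, since 4 against 3 libraries allow no exact two-sided p below 0.0571. That smallest value was reached by Gria3 to Gria2 in the superficial layer, at -0.13 on the log2 scale (exact permutation adjusted p = 0.4). In the deep layer it was reached by TARPs to Gria, at -0.23, and Cacng4 to Cacng2, at -0.19 (exact permutation adjusted p = 0.2 each). TARPs to Gria was 3.25, 2.78, 2.78 and 3.34 in cbx deep libraries, against 3.36, 3.54 and 3.77 in saline deep libraries. The summed TARP level was 251.9 ± 11.6 CPM per kb in cbx deep libraries, against 277 ± 7.42 in saline deep libraries (SD, n = 4 and 3). Gria1 to Gria2 spread more in cbx deep libraries, over 0.864 to 1.24, than in saline deep libraries, over 1.16 to 1.19, and its difference was -0.24 (exact permutation p = 0.229).

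Whether the layer difference itself changed with cbx was tested as an interaction. None of the 10 genes passed, and none had an unadjusted p under 0.05, with log2 values from -0.22 to 0.19 (edgeR). DESeq2 and limma-voom called none of the 10 either. Over all genes 0% passed in edgeR, where 1699 genes had an unadjusted p under 0.05, DESeq2 called 60 and the fit with the pool as a block called 61. The 95% intervals of the 10 genes ran from -0.52 to 0.43.

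Markers that moved with cbx in the superficial layer are given beside these values, and their part was not tested. Of 12 microglial and macrophage markers 7 were higher after cbx, with sums of 350.4 to 416 CPM in cbx superficial libraries, against 255 to 306 CPM in saline superficial libraries. Of 10 markers of meningeal fibroblasts 4 were higher, with sums of 693 to 1379 CPM in cbx superficial libraries, against 536 to 794 CPM in saline superficial libraries. Of 5 red blood cell markers 1 was higher, with sums of 237.6 to 388 CPM in cbx superficial libraries, against 149 to 230.5 CPM in saline superficial libraries. Of the other lists, 2 of 10 pan-neuronal, 1 of 8 oligodendrocyte precursor, 1 of 8 oligodendrocyte and 1 of 10 dorsal midbrain markers were higher. Among 5 GABAergic markers 1 was lower, and among 10 astrocyte and radial glia markers 1 was higher and 1 lower. Over all tested genes 2.68% were higher and 1.65% lower. The deep layer held no call of microglial, meningeal or red blood cell markers, and 1 of 8 oligodendrocyte precursor markers was lower there. There the meningeal sums were 41.9 to 55.9 CPM in cbx libraries, against 62.9 to 72.9 CPM in saline libraries, and astrocyte and radial glia sums were 3071 to 3487 CPM in cbx libraries, against 3468 to 4051 CPM in saline libraries, with 1 of 10 markers lower.

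Proteins that work with AMPA receptors were read from 6 lists, shown in the plot of partner genes. The 10 other auxiliary subunits held the largest layer difference of all 63 tested partner genes. Shisa8, of the CKAMP family, averaged 36.4 ± 3.66 CPM in cbx superficial libraries, against 7.04 ± 0.344 in cbx deep libraries (SD, n = 4 each), and 48.4 ± 3.67 CPM in saline superficial libraries, against 9.39 ± 1.60 in saline deep libraries (SD, n = 3 each). Its log2 difference was 2.37 after cbx and 2.36 after saline (edgeR adjusted p = 1.80e-12 and 2.74e-11). Shisa6, of the same family, was lower in the superficial layer, by -0.91 after cbx and -1.06 after saline (edgeR adjusted p = 3.27e-07 and 6.22e-07). Shisa9 was lower too, at -0.28 and -0.51, while Prrt1, another auxiliary subunit, was higher, at 0.24 and 0.43. In this list 2 genes were higher and 3 lower after cbx, and 2 higher and 2 lower after saline. Over all tested genes 18.1% were higher and 14.1% lower after cbx, and 9.67% higher and 8.73% lower after saline, and the split after cbx turned with the length and GC trend removed, as given above. Of the 2 tested gamma subunits that are not TARPs, Tmem37 was higher in the superficial layer, by 1.88 after cbx and 1.38 after saline (edgeR adjusted p = 4.68e-07 and 0.000287). It averaged 4.66 ± 1.13 and 2.84 ± 0.534 CPM in cbx and saline superficial libraries, against 1.26 ± 0.107 and 1.09 ± 0.106 CPM in cbx and saline deep libraries.

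Of 12 genes for clustering of receptors from outside the cell 9 were lower and 2 higher in the superficial layer after cbx, and 6 lower and 0 higher after saline. Beside this and the next lists, 14.1% of all tested genes were lower and 18.1% higher after cbx, and 8.73% lower and 9.67% higher after saline. Nptx1, a neuronal pentraxin that gathers AMPA receptors, averaged 30.8 ± 2.26 and 35.02 ± 2.77 CPM in cbx and saline superficial libraries, against 60.5 ± 2.71 and 56.8 ± 6.65 CPM in cbx and saline deep libraries. The pentraxin receptor Nptxr differed by -0.61 after cbx and -0.48 after saline, and the synaptic adhesion gene Lrrtm1 by -0.72 and -0.60 (edgeR adjusted p at most 0.000107). Among 17 anchoring and traffic genes 11 were lower and 2 higher after cbx, and 6 lower and 1 higher after saline. Akap5, which anchors kinases to the receptor, differed by -0.97 and -0.74, and Camk2b, a subunit of CaM kinase II, by -0.47 and -0.39. Of 14 other ionotropic glutamate receptor genes 11 were lower after cbx and 8 after saline, and 0 were higher. Grin2d, an NMDA receptor subunit, differed by -0.65 and -0.52. The 8 assembly genes held 1 called gene after cbx, Adar (-0.25, edgeR adjusted p = 0.0294), and 0 after saline. The Adar call was lost without cbx deep 3 (0.0742), cbx superficial 1 (0.0668) or cbx superficial 2 (0.0655).

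**Figure D5:**
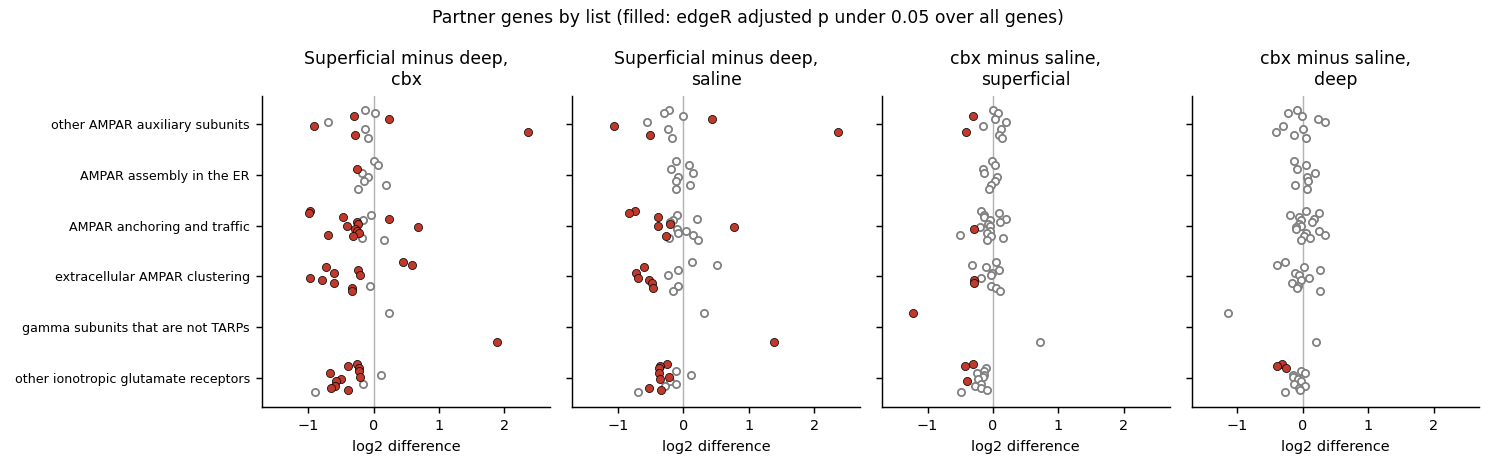
Log2 difference of each partner gene (horizontal axes, 1 point per gene) by list in 4 comparisons, with filled points for genes that passed over all genes. Shisa8 lies at 2.37 and 2.36 in the layer panels, most filled layer points lie below 0, and all filled points of cbx against saline lie below 0.

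After cbx 9 of 63 partner genes passed in the superficial layer, all lower, where 1.65% of all genes were lower. In the deep layer 3 passed, all lower, where 0.777% of all genes were. Grid1, a delta receptor of synapse organisation, was among them in both layers and differed by -0.31 in each (edgeR adjusted p = 0.0118 and 0.0162). Shisa8, Gsg1l, Grip1, Nptxr, Nptx2, Grin2a and Cacng1 also passed in the superficial layer, with log2 differences of -0.41, -0.31, -0.30, -0.30, -0.29, -0.40 and -1.22 in that order. Cacng1, a gamma subunit of the muscle calcium channel and no TARP, was low, at 0.852 ± 0.284 CPM in cbx superficial libraries, against 1.98 ± 0.263 in saline superficial libraries. Grik1, a kainate receptor subunit, also passed in the deep layer, at -0.25 (edgeR adjusted p = 0.0402).

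Most of these calls did not stand without single libraries, although each difference kept its sign. Without saline pool 1 and cbx pool 4 all 9 superficial and all 3 deep calls were lost, at edgeR adjusted p of 0.0823 to 0.269 and 0.204 to 0.327, in a fit that called 91 and 14 genes in all. In the superficial layer Grid1 lost its call without saline superficial 1 (0.0591) or 3 (0.0574), and Nptxr without saline superficial 1 (0.0536) or 3 (0.0632). Shisa8 lost it without saline superficial 2 (0.0947) or 3 (0.115) or cbx superficial 2 (0.0513) or 4 (0.0528). Cacng1 lost it without saline superficial 2 (0.0892) or 3 (0.0924). Gsg1l lost it without any superficial library but cbx 3, Grip1 without any but cbx 3 and 4, Nptx2 without any but cbx 1 and 2, and Grin2a without any but saline 3, at adjusted p of 0.0532 to 0.205. Among the deep calls, Grid1 lost it without any saline deep library (0.0565 to 0.0929) or without cbx deep 2 (0.0744), and Grik1 without any library but cbx deep 3 (0.084 to 0.183). Grik1 also lost it with no filter (0.115), with the replicate block (0.104) and with the Ddx3y covariate (0.0988). A fit of the superficial libraries alone ended the superficial calls of Grid1, Shisa8, Gsg1l, Grip1, Nptxr, Nptx2, Grin2a and Cacng1 (0.0623 to 0.146), and the Ddx3y covariate ended those but Grid1 (0.0576 to 0.204). The replicate block ended those but Grid1 and Nptxr (0.053 to 0.12). Grin2a, Grip1 and Nptx2 did not pass in limma-voom (0.0504 to 0.0674), nor Grin2a with the length and GC trend removed (0.124).

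Genes whose pattern over the 14 libraries lay closest to each member were found among 15168 genes with a mean of at least 1 CPM. The measure was the root mean square difference in log2 CPM after removal of each gene's mean, given here as a description. Closest to Gria1 were Calu and Cntn4, at 0.0697 and 0.0713, where Gria1 itself varied with a root mean square of 0.229. Raph1 and Cstf2 lay closest to Gria2, at 0.0813 and 0.0866, beside 0.264 for Gria2 itself. Rcan3 and Ap2a2 lay closest to Cacng2, at 0.0559 and 0.0563, beside 0.186 for Cacng2. For Cacng8 these were Slc36a1 and Mid2, for Gria3 Zcchc2 and Tmem121b, and for Gria4 Pcnx3 and Enah. For Cacng3 they were Cd200 and Arxes1, for Cacng4 Lbh and Mid1ip1, for Cacng7 B4galt7 and Nsg1, and for Cacng5 Pam and Neu1, the last pair at 0.100 and 0.101 beside 0.146 for Cacng5 itself. No member was among the 2 genes closest to another member.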

How the data were processed

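The authors deposited whole-number counts of reads per Ensembl gene ID, 1 table per library. The submitters' processing notes name STAR 2.7.9d, featureCounts with Subread 2.0.1, SAMtools 1.14 and FastQC 0.11.9, and both GRCm39 and mm10. For the counting, neither annotation nor strand setting is given in the sources used here. Where genes overlap or lie antisense, their reads could be mixed. Symbols matched 52083 of 55359 IDs. Exon lengths, sequences and coordinates came from GENCODE M21 (GRCm38).

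Counts were fitted with edgeR 4.0.16 in R 4.3.3, by the quasi-likelihood test with robust dispersion, TMM factors, filterByExpr by group and 4 group means over 14 libraries (10 residual degrees of freedom). Benjamini-Hochberg adjustment ran over all 20330 tested genes, with a threshold of 0.05. The fit takes libraries as independent. Ratios used levels per kb of all exons and exact permutation tests in scipy 1.17.1, adjusted over 7 ratios. The steps were tested on simulated data. The members, lists and tests were chosen with earlier results of these data known. Named partner genes are, per list and comparison, up to 4 with the smallest p-values. A partner gene that these rules name is not reported here.

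The titles number the replicates. Superficial and deep libraries with one number deviated together from their group means, with correlations of 0.182 to 0.390 over 7 pairs, so the numbers pair the layers into pools. Between injections the 6 pairs correlated at -0.274 to -0.0202 and share only a number. Within groups, replicate pairs gave 7.07 to 45.7 as chi-square per gene, more than sampling noise.

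Each fit was repeated with DESeq2 1.42.0, limma-voom (limma 3.58.1), size factors by the median of ratios, no filter, a filter at 1 CPM in 3 libraries, only the groups compared, a replicate block, a Ddx3y covariate, the length and GC trend of every library removed, single libraries left out, and both pools of one sex left out. Ratios were repeated with a pseudocount of 0.5 counts and with the longest transcript as length.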

Additional observations from a re-analysis of the deposited data

Results flagged for a closer look

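Gria2 in the cbx superficial group stood out in 1 library, at 256.5 CPM in pool 1, against 297 to 305 CPM in the other 3. Its gap to the nearest library was 0.840 of the group's range, above Dixon's critical value for 4 samples. This was 1 of 34 groups of values tested in this way, and chance flags about 1 in 20. Without this library the log2 layer difference of Gria2 after cbx was -0.48 (edgeR adjusted p = 0.000273), and the ratio of Gria1 to Gria2 was 2.05 in it, the highest of its group. The cause was not tested.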

How the results depend on the processing

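Of 10 results in which one of the 10 genes passed between layers, all kept their direction under every alternative run, and 150 of 172 recomputed values also kept their call. The 5 ratios that passed between layers did so under each of 25 alternatives, including sign flips over the pools (adjusted p = 0.0219). Among these alternatives, the pseudocount was too small beside the counts to move any of the ratios. The longest transcript as length cannot change the layer difference of a ratio between single genes. Neither alternative therefore tests such ratios. The ratios were not repeated with the length and GC trend removed. The replicate block (the pool between layers, the replicate number between injections) changed no call of a member. It gave 6 and 4 calls between layers after cbx and saline. Over all genes it called 7602 and 4662 there, 480 and 191 for cbx in the superficial and deep layer, and 61 for the interaction. The number of members called between layers after saline was 2, Gria1 and Cacng2, after both one-sex pools were dropped, and 2 to 4 with single libraries left out. For cbx in the superficial layer it was 0 to 1 with single libraries left out. For cbx in the deep layer it was 1 in DESeq2, 1 with only the deep libraries in the fit and 2 with the length and GC trend removed. These settings called 901, 611 and 817 of all genes there, in that order, against 373 in the main fit. Over all genes the cbx comparison called 880 genes in the superficial layer, with 140 to 907 when single libraries were left out and 91 to 1585 in the other settings. In the deep layer it called 373, with 42 to 272 and 14 to 901, and between layers after saline 3739, with 2685 to 3406 and 2133 to 4662. With the Ddx3y covariate the cbx comparison called 258 genes in the superficial and 213 in the deep layer. The interaction called 0 genes, with 0 to 14 and 0 to 256, the last with no filter.

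Sign changes were found only among values that did not pass. For cbx against saline in the superficial layer, TARPs to Gria was -0.00985 and Gria1 0.0126 after both one-sex pools were dropped, and Gria2 was -0.00140 with the 1 CPM filter. For cbx in the deep layer Gria1 was 0.00349 with only the groups compared, 0.0106 with the replicate block, 0.0930 without the pools of one sex, 0.0245 with the Ddx3y covariate and 0.0177 with the length and GC trend removed. In the same settings Cacng5 was 0.00108, 0.0263, 0.0553, 0.0871 and 0.0175. Without these pools Gria3 was 0.0649 and Cacng3 0.00935, and the Ddx3y covariate gave 0.00293 for Gria3. Between layers Cacng7 was 0.0147 after saline without them. After cbx, Cacng3 and Cacng7 were -0.00521 and -0.00746 with the 1 CPM filter, and Cacng3, Cacng4 and Cacng7 were -0.0869, -0.00982 and -0.0582 with the length and GC trend removed, where the interaction of Cacng7 was -0.00990.

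With single libraries left out, cbx differences in the superficial layer ran from -0.0824 to 0.0899 for TARPs to Gria, -0.0863 to 0.0241 for Gria1, -0.0424 to 0.0855 for Gria2, -0.173 to 0.0137 for Cacng7 and -0.0234 to 0.101 for Cacng8. In the deep layer they ran from -0.0365 to 0.0591 for Gria1, -0.0845 to 0.0372 for Gria3, -0.107 to 0.00940 for Cacng3, -0.0557 to 0.0274 for Cacng5 and -0.00193 to 0.0946 for Cacng8. Between layers they ran from -0.0656 to 0.0254 for Gria4 and -0.105 to 0.00320 for Cacng7 after saline, and from -0.0203 to 0.0834 for Cacng3 and -0.0863 to 0.0879 for Cacng7 after cbx. Interactions ran from -0.100 to 0.0270 for Gria1, -0.144 to 0.00807 for Gria3, -0.0502 to 0.138 for Cacng7 and -0.0804 to 0.0449 for Cacng8. The causes were not tested. Groups held 3 or 4 pools each. Orders of levels per kb depend on the annotated length.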
